A study of Mus musculus with 9 samples.

Results

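The miR-29 family is a set of related microRNAs (miRNAs), short RNAs that pair with messenger RNAs and lower their output. The family was followed here across 9 small RNA libraries from mouse colon. Its members were chosen by name. They are mmu-miR-29a-3p, mmu-miR-29a-5p, mmu-miR-29b-3p, mmu-miR-29c-3p and mmu-miR-29c-5p (the mouse prefix mmu is left off from here on), and all 5 were found among the 1155 entries of the table. All 5 also passed the filter on low counts, which left 433 entries to test.

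The libraries came from wild-type C57BL/6J mice, 3 for each of 3 groups. The DSS_RJA group drank 2.5% (w/v) dextran sulfate sodium (DSS), which damages the epithelium of the colon and causes colitis, and also received royal jelly acid (RJA) by daily gavage at 10 mg/kg in 0.2 mL. The DSS group drank the same DSS water, and the Control group had normal diet and water. No gavage is recorded for DSS or Control, so RJA and gavage cannot be told apart, and the labels give neither the age of the mice nor the days of DSS. DSS colitis is a chemical injury that models only parts of ulcerative colitis. The labels list separate samples without naming animals, so the p-values measure only the spread between these samples.

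The 3p strands of miR-29 are best known as restraints on extracellular matrix. They pair with messenger RNAs of collagens, elastin and fibrillin, and low miR-29 accompanies scarring in heart, liver, lung and intestine. A miRNA hairpin is cut into a 5p and a 3p strand. One of them, the guide, is usually kept by Argonaute proteins, while the other, the passenger, is mostly degraded. At the Mir29 hairpins the 3p strand is regarded as the guide.

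A target is recognised mainly through the seed, bases 2 to 8 of the mature strand, counted from 1 at the 5′ end. The mature strands are printed in RefSeq's form, 5′ to 3′, with the seed in capitals, because it is the part that the 3p members share and the 5p members do not.
miR-29a-3p: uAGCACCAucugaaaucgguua
miR-29b-3p: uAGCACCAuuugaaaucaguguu
miR-29c-3p: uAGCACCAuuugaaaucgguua
miR-29a-5p: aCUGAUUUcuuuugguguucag
miR-29c-5p: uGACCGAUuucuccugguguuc
Of 1679 mature miRNA names in the RefSeq table (build GRCm38.p6), 3 carried the seed AGCACCA, and these were the 3p members. The 5p members had the seeds CUGAUUU and GACCGAU, so their seed match sites are not those of the 3p strands or of each other. Whether they share target genes was not tested. miR-29a-3p and miR-29c-3p differ by the single substitution C10U. miR-29b-3p and miR-29c-3p are the same over their first 17 bases. miR-29b also ends in a motif that directs it to the nucleus in human cells. The labels and notes used here do not say how reads that match more than one miRNA, or match with a mismatch, were assigned. The split of reads between miR-29a-3p and miR-29c-3p is therefore uncertain.

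The family comes from 2 loci. In build GRCm38.p6, Mir29a (chr6:31062660-31062747) and Mir29b-1 (chr6:31063023-31063093) lie on the minus strand of chromosome 6, with 275 bases between them. Mir29b-2 (chr1:195037040-195037120) and Mir29c (chr1:195037547-195037634) lie on the plus strand of chromosome 1, with 426 bases between them. In the GENCODE M21 annotation the chromosome 1 pair falls within the noncoding host transcript A330023F24Rik and opposite the 3′ end of Cd46, and the chromosome 6 pair lies beside the noncoding gene Gm27019. Which build the authors used is not stated there either. The Mir29a and Mir29c hairpins are shown because the arms of these precursors behaved differently, and the capitals mark their mature strands, 5p first.
Mir29a: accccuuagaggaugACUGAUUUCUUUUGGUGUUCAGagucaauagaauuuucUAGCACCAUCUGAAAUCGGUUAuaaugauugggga
Mir29c: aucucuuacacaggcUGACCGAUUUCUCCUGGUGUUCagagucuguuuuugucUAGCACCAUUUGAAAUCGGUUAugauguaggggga
Since both miR-29b hairpins give the same 3p strand, reads of miR-29b-3p cannot be given to either locus.

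The pairing partner of the seed in a messenger RNA is TGGTGCT, written as DNA on the transcript strand, the only strand searched. A list of 9 matrix genes that are textbook targets was searched for it in the longest GENCODE M21 3′ UTR of each gene. It occurred in 7 of the 9 genes, 14 times in all, and the 3′ UTRs searched for Col1a2 and Sparc held no match to the whole motif. Shorter matches were not searched. Among the 10241 genes with a 3′ UTR of at least 1000 bases, 10.0% held the motif in the first 1000 bases. Of the 5 listed genes with a 3′ UTR that long, 4 did. The genes were chosen as known targets, so these counts are a description. A site from each of 4 genes shows what the 3p members read, with the match in capitals.
Col1a1, a fibrillar collagen chain (chr11:94952523-94952545, plus strand): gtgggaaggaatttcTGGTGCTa
Col3a1, a fibrillar collagen chain (chr1:45348967-45348989, plus strand): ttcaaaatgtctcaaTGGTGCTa
Eln, elastin (chr5:134703736-134703758, minus strand): cgacctcatcaacgtTGGTGCTa
Fbn1, fibrillin (chr2:125301173-125301195, minus strand): tttctgttgtctgttTGGTGCTa
No messenger RNA was measured in these libraries.

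Library totals ran from 5985153 to 8280980 counts, of which miR-143-3p, a smooth muscle miRNA, took 66.4% to 75.5%. Levels are given as CPM, read counts divided by the library total after scaling by TMM (the trimmed mean of M-values). Markers of the cell types that whole colon can hold were summed in each library. The summed level of 10 epithelial markers ran from 9458 to 96273 CPM in DSS_RJA libraries, from 7955 to 35786 CPM in DSS libraries and from 92509 to 113541 CPM in Control libraries. Every DSS library lay below every Control library, while library DSS_RJA 1, at 96273 CPM, lay within the Control range. The 5 fibroblast and mesenchyme markers summed to 854 to 1367 CPM in DSS_RJA, 1240 to 1504 CPM in DSS and 934 to 1075 CPM in Control. The 4 smooth muscle markers, miR-143-3p among them, summed to 671669 to 778985 CPM in DSS_RJA, 613088 to 647950 CPM in DSS and 772564 to 826018 CPM in Control. The gap between DSS and Control in this sum depends on the scaling. Before TMM, miR-143-3p took 67.2% to 75.5% of the counts in DSS and 66.4% to 70.9% in Control, which overlap. TMM factors were 1.11 to 1.19 in DSS and 0.87 to 0.90 in Control. The 4 myeloid and pan-leukocyte markers summed to 43.5 to 208 CPM in DSS_RJA, 109 to 236 CPM in DSS and 50.9 to 87.6 CPM in Control. The 2 endothelial markers summed to 3926 to 5312 CPM in DSS_RJA, 3128 to 5047 CPM in DSS and 3272 to 3524 CPM in Control. No marker was at 0 in any group, and none passed by itself in edgeR in any of the 3 comparisons. Of all 433 tested miRNAs, 3.93% passed with DSS over Control, 0.231% with DSS_RJA over DSS and 0% with DSS_RJA over Control. With DSS over Control all 10 epithelial log2 fold changes were negative (median -2.42). All 4 myeloid and pan-leukocyte ones were positive (median 1.53). The other sums mixed directions there. Fibroblast and mesenchyme markers had 4 positive and 1 negative, smooth muscle 1 and 3, and endothelium 1 and 1. In whole tissue, fewer cells of a type and less of a miRNA per cell cannot be told apart. The part of these marker values in the miR-29 values was not tested.

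miR-29a-3p made up nearly all of the family. It held 87.1% to 92.7% of the family's reads in a library and 97.0% to 98.6% of the reads of the 3 members that share the seed. These shares are of reads as assigned in the deposited counts. The part of read assignment between miR-29a-3p and miR-29c-3p in them was not tested. By mean level over the 9 libraries it was at 1175 CPM and ranked 37 among the 433 tested miRNAs. miR-29c-5p followed at 89.2 CPM, miR-29b-3p at 17.2 CPM, miR-29c-3p at 8.87 CPM and miR-29a-5p at 5.21 CPM. The mature strands are 22 or 23 bases long, so these levels need no correction for length, but each sequence has its own efficiency of ligation and amplification, which was not tested. The order of reads was the same in all 9 libraries. miR-29c-3p and miR-29a-5p were the closest neighbours, with 50 against 49 reads in DSS 2, and their ranges of CPM over the libraries overlapped.

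miR-29a-3p, the main guide strand of the chromosome 6 locus, was at 1254, 1359 and 1242 CPM in DSS and at 1147, 1151 and 1086 CPM in Control. All 3 DSS libraries lay above all 3 Control libraries, but by a small margin. The DSS mean was 1285 ± 64.1 CPM and the Control mean 1128 ± 36.3 CPM (SD, n = 3). With a log2 fold change of 0.19 and a standard error of 0.16, the difference did not pass (edgeR quasi-likelihood test, adjusted p = 0.452). In DSS_RJA it was at 963, 1241 and 1128 CPM, and DSS_RJA 1 was the lowest of the 9 libraries. Set against DSS, the log2 fold change of DSS_RJA was -0.21 ± 0.16 (edgeR adjusted p = 0.531), and set against Control it was -0.02 ± 0.16 (edgeR adjusted p = 0.953). The highest DSS_RJA value lay below the lowest DSS value by less than 1 CPM.

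The size of the DSS difference in miR-29a-3p depended on the scaling. In the deposited TPM values, which here are counts over the library total with no term for length, it was at 1396, 1511 and 1472 TPM in DSS and at 995, 1037 and 942 TPM in Control. Scaled by library total alone, the log2 fold change was 0.56 (edgeR adjusted p = 0.0589). That scaling also moved the median of all 433 miRNAs to 0.37, against 0.01 with TMM. Relative to the median, miR-29a-3p was higher by 0.19 without TMM and by 0.18 with it.

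miR-29a-5p, the passenger strand of the same hairpin, had 21 to 49 reads in a library. It was at 5.63, 6.67 and 5.07 CPM in DSS_RJA, 5.39, 6.83 and 2.34 CPM in DSS and 6.29, 3.89 and 4.74 CPM in Control. The 3 groups overlapped, and DSS 3 was the lowest library. The log2 fold change was -0.04 ± 0.35 with DSS over Control (edgeR adjusted p = 0.962). For DSS_RJA it was 0.25 ± 0.35 over DSS (edgeR adjusted p = 0.756) and 0.21 ± 0.36 over Control (edgeR adjusted p = 0.813). Its approximate 95% interval for DSS against Control ran from -0.90 to 0.82 on the log2 scale, so changes within that interval were not told apart from 0.

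miR-29b-3p, which comes from both loci, was at 15.8, 15.01 and 19.2 CPM in DSS_RJA, 18.4, 21.3 and 12.5 CPM in DSS and 15.03, 16.4 and 21.2 CPM in Control. The 3 ranges lay over each other. The log2 fold change was -0.01 ± 0.24 for DSS against Control (edgeR adjusted p = 0.988), with an approximate 95% interval of -0.60 to 0.58. For DSS_RJA it was -0.06 ± 0.24 over DSS (edgeR adjusted p = 0.920) and -0.07 ± 0.24 over Control (edgeR adjusted p = 0.898).

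miR-29c-3p, the textbook guide of the chromosome 1 locus, gave the TMM-scaled log2 fold change farthest from 0 of the 5 members in DSS against Control, an order that did not hold without TMM. It had 78, 50 and 41 reads in DSS and 63, 74 and 78 reads in Control. Scaled, it was at 9.56, 6.97 and 4.57 CPM in DSS and at 9.66, 9.92 and 12.7 CPM in Control, so the groups did not overlap on this scale, although DSS 1 reached almost to the lowest Control library. The log2 fold change was -0.60 ± 0.27 (standard error), with an approximate 95% interval of -1.26 to 0.06, and did not pass (edgeR adjusted p = 0.153, unadjusted p = 0.0511). In the deposited TPM values it was at 10.6, 7.75 and 5.42 TPM in DSS and at 8.38, 8.94 and 11.1 TPM in Control, and there the groups overlapped. Scaled by library total alone, the log2 fold change was -0.24 (edgeR adjusted p = 0.485), nearer to 0 than that of miR-29a-3p. Relative to the median of all miRNAs it was -0.61 with either scaling. In DSS_RJA it was at 9.57, 7.88 and 8.92 CPM, all below the 3 Control libraries on the TMM scale (not in TPM) and within the DSS range or just above its top. Over DSS its log2 fold change was 0.31 ± 0.27 (edgeR adjusted p = 0.586), and over Control it was -0.29 ± 0.27 (edgeR adjusted p = 0.629). Leaving out 1 library moved the first of these between 0.083 and 0.58 and the second between -0.34 and -0.15.

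miR-29c-5p, the other arm of that hairpin, had 404 to 786 reads in a library. It was at 111.3, 81.6 and 62.1 CPM in DSS_RJA, 82.0, 109.5 and 78.8 CPM in DSS and 93.0, 96.9 and 88.1 CPM in Control. Control libraries lay close together, while both DSS-exposed groups spread to either side of them. The log2 fold change was -0.04 ± 0.23 with DSS over Control (edgeR adjusted p = 0.935). For DSS_RJA it was -0.08 ± 0.23 over DSS (edgeR adjusted p = 0.888) and -0.12 ± 0.23 over Control (edgeR adjusted p = 0.830).

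**Figure D1:**
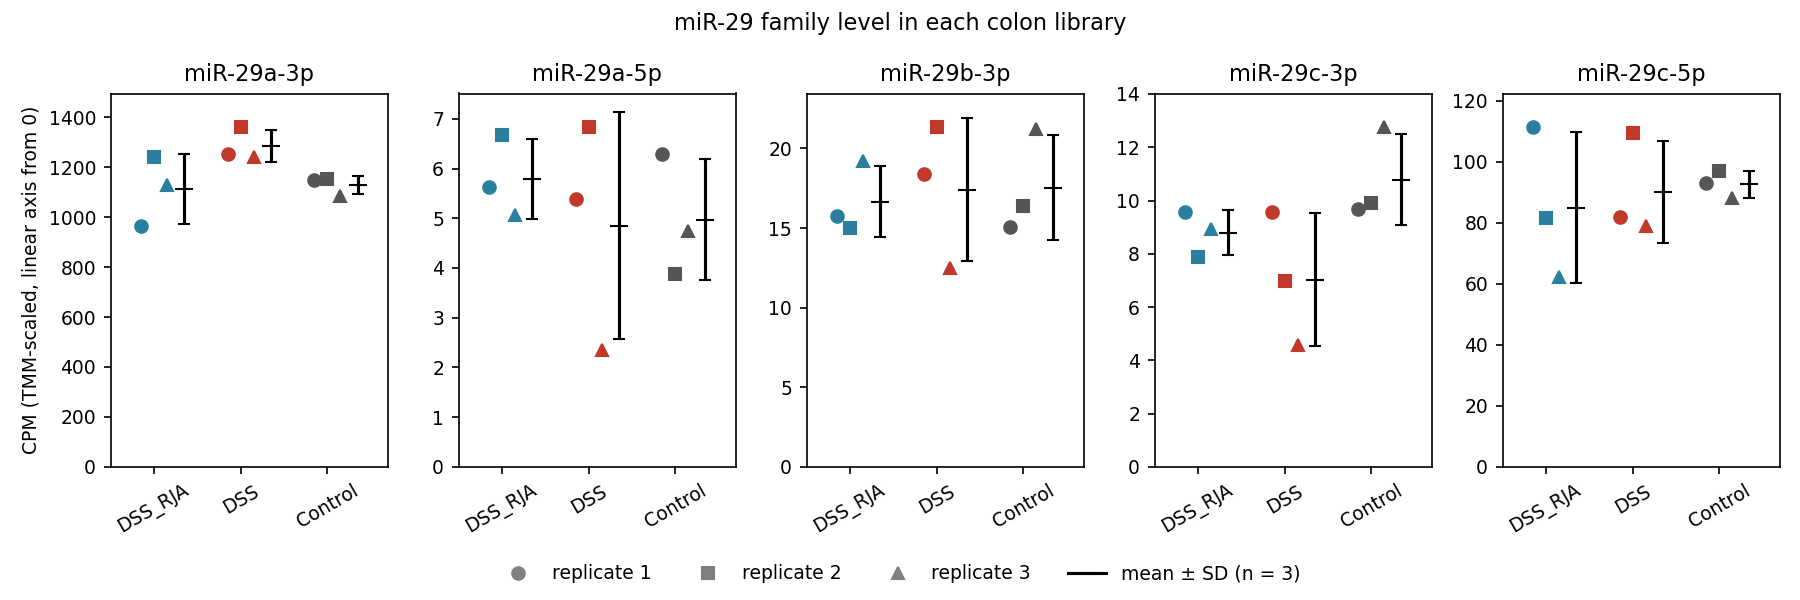
Level of each miR-29 member in each library, in TMM-scaled CPM on linear axes from 0, with the libraries of DSS_RJA, DSS and Control as points and their mean ± SD (n = 3) beside them. miR-29a-3p in DSS (1242 to 1359 CPM) lies above Control (1086 to 1151 CPM), miR-29c-3p in DSS (4.57 to 9.56 CPM) lies below Control (9.66 to 12.7 CPM), and the other members overlap.

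Counted over the family, none of the 5 members passed in DSS against Control, where 3.93% of all tested miRNAs did, 2.31% higher and 1.62% lower in DSS. None passed in DSS_RJA against DSS, where 0.231% of all did, or in DSS_RJA against Control, where 0% did in edgeR. DESeq2 and limma-voom, run on the same counts, also passed none of the 5 members in any of the 3. In that last comparison DESeq2 passed 2 of all miRNAs and limma-voom passed 0. On the TMM scale the groups did not overlap for 2 of the 5 in DSS against Control, against 41.6% of all tested miRNAs. With DSS_RJA it was 1 of the 5 over DSS, against 13.2% of all, and 1 of the 5 over Control, against 21.7% of all. At an unadjusted p under 0.05 there was no member in any comparison, while 33% of all miRNAs were there with DSS over Control. With DSS_RJA the share was 14.1% over DSS and 14.3% over Control. The 5 members had a median log2 fold change of -0.04 in the first of these, beside 0.01 over all miRNAs, of -0.06 beside 0.02 in the second and of -0.07 beside 0.03 in the third. The comparisons share libraries, since each group enters 2 of them.

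**Figure D2:**
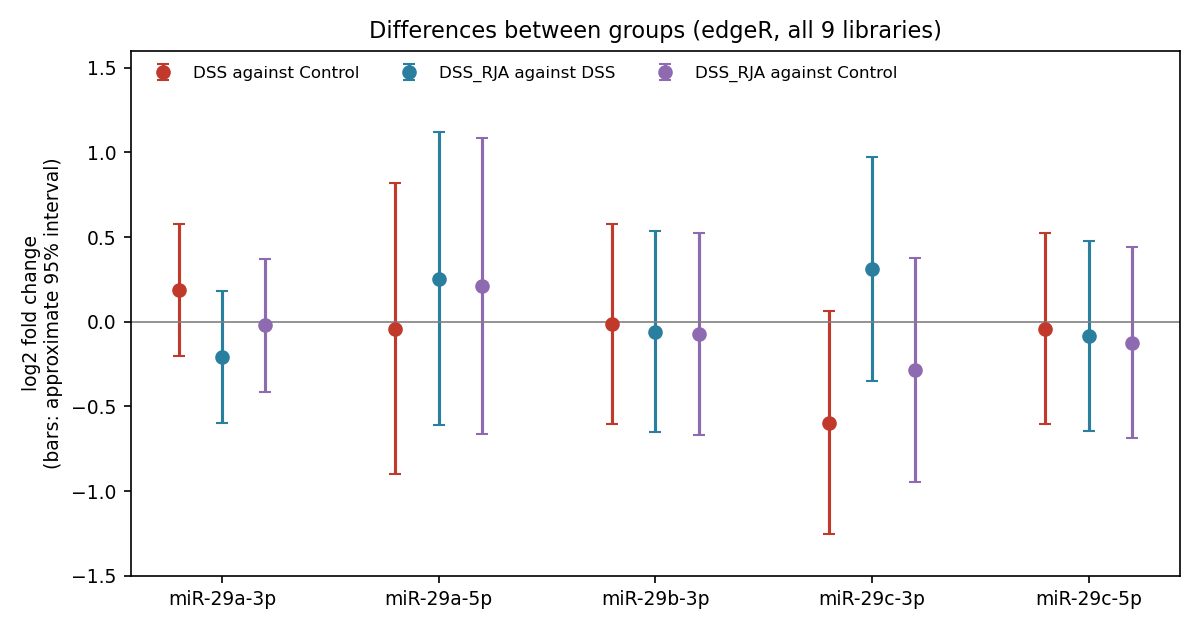
Log2 fold change of each member (vertical axis) in the 3 comparisons (DSS over Control, DSS_RJA over DSS, DSS_RJA over Control), with approximate 95% intervals from the edgeR fit to all 9 libraries. All 15 intervals include 0, and the interval nearest to leaving it out is that of miR-29c-3p in DSS against Control (-1.26 to 0.06).

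The arms of the Mir29a and Mir29c hairpins were read in opposite balance. At Mir29a the 3p strand outnumbered the 5p strand in every library, by 168 to 219 times in DSS_RJA, 197 to 518 times in DSS and 180 to 291 times in Control. At Mir29c it was the 5p strand that outnumbered the 3p strand, by 6.91 to 11.5 times in DSS_RJA, 8.53 to 17.0 times in DSS and 6.87 to 9.71 times in Control. The textbook passenger of miR-29c was thus the more abundant arm in all 9 libraries. miR-29c-3p differs from the far more abundant miR-29a-3p by C10U alone, and the part of read assignment in this balance was not tested.

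**Figure D3:**
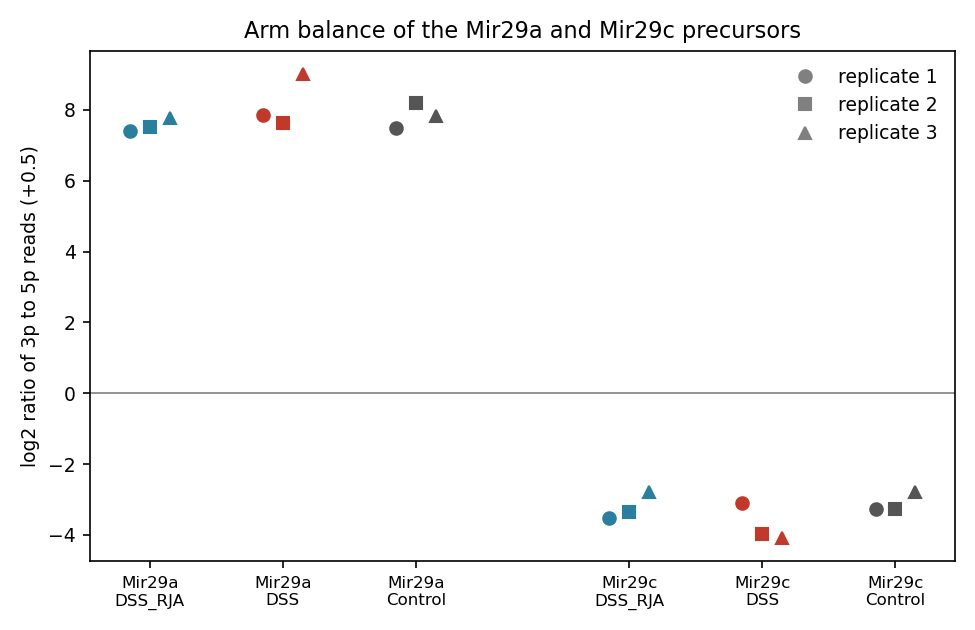
Log2 ratio of 3p to 5p read counts (0.5 added to each) for the Mir29a and Mir29c hairpins, 1 point per library, in DSS_RJA, DSS and Control. Every Mir29a point lies above 0 (a 3p excess of 168 to 518 times) and every Mir29c point below it (a 5p excess of 6.87 to 17.0 times).

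No difference between groups in arm balance passed, and the groups overlapped. The log2 ratio of miR-29a-3p to miR-29a-5p was 8.16 ± 0.75 in DSS and 7.83 ± 0.35 in Control (SD, n = 3, exact two-sided permutation test, p = 0.6). The log2 ratio of miR-29c-3p to miR-29c-5p was -3.71 ± 0.54 in DSS and -3.11 ± 0.28 in Control (n = 3, exact permutation p = 0.3). In DSS_RJA these ratios were 7.56 ± 0.19 and -3.22 ± 0.39. With 3 libraries against 3 such a test cannot go below 0.1, and with 6 against 3 it cannot go below 0.0238. In all, 6 ratios were tested in 4 comparisons, 24 tests, and the smallest p adjusted over them was 0.514.

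To set the miR-29a/b-1 locus against the miR-29b-2/c locus, the 3p reads were compared within each library, which needs no scaling between libraries. miR-29a-3p and miR-29c-3p differ by C10U alone, and the part of read assignment in their ratio was not tested. miR-29a-3p had 130, 193 and 268 times the reads of miR-29c-3p in DSS, against 118, 115 and 84.7 times in Control, so the groups did not overlap. The log2 ratio was 7.56 ± 0.52 in DSS and 6.71 ± 0.27 in Control (SD, n = 3), a 1.80-fold higher ratio in DSS with an exact permutation p of 0.1, the smallest this design can give. In DSS_RJA the ratio was 99.7, 156 and 125, overlapping both other groups. The log2 difference of DSS_RJA (± standard error) was -0.60 ± 0.35 from DSS (exact permutation p = 0.2) and 0.25 ± 0.24 from Control (exact permutation p = 0.4). As 1 group, DSS and DSS_RJA were at 7.26 ± 0.51 (n = 6) against 6.71 ± 0.27 in Control (n = 3), and the exact permutation p was 0.119. Over the 9 libraries left out in turn, the unadjusted exact permutation p ran from 0.0357 to 0.357 and the log2 difference from 0.39 to 0.68, against 0.55 with all. The p was under 0.05 without DSS_RJA 1 alone, where it is the smallest that 5 against 3 libraries can give.

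The ratio of miR-29b-3p to miR-29c-3p differed in the same direction. miR-29b-3p had 1.92, 3.04 and 2.71 times the reads of miR-29c-3p in DSS, and the Control libraries lay within a narrow band of 1.55, 1.64 and 1.66 times. The groups did not overlap, and the log2 difference (± standard error) was 0.63 ± 0.20 (exact permutation p = 0.1 with n = 3 each). DSS_RJA, at 1.64, 1.90 and 2.15 times, overlapped both. With DSS and DSS_RJA together against Control the log2 difference was 0.43 ± 0.14 (exact permutation p = 0.0714). Leaving out 1 library in turn gave unadjusted exact permutation p of 0.0357 to 0.214, again under 0.05 without DSS_RJA 1 alone and again at the smallest p of that design. This ratio and the last share miR-29c-3p, so they are not independent of each other, and the part of read assignment was tested in neither.

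Between the 5p arms of the 2 loci the groups overlapped. miR-29a-5p had 15.04, 15.9 and 32.9 times fewer reads than miR-29c-5p in DSS and 14.6, 24.5 and 18.3 times fewer in Control. The log2 difference of this ratio (± standard error) was -0.09 ± 0.42 for DSS against Control (exact permutation p = 0.8), against 0.85 ± 0.34 for the 3p arms. The difference between these 2 values was not tested. With the most abundant strand of each locus, miR-29a-3p over miR-29c-5p, a comparison added after the data were seen, the ratio was 15.3, 12.4 and 15.7 in DSS and 12.3, 11.9 and 12.3 in Control. Those groups did not overlap either, and the log2 difference was 0.24 ± 0.11 (exact permutation p = 0.1). In DSS_RJA that ratio spread from 8.65 to 18.1, with DSS_RJA 1 at the low end. As a background to the ratios that did not overlap, 41.6% of all tested miRNAs did not overlap between DSS and Control on the TMM scale. The share among ratios of other miRNAs was not computed.

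**Figure D4:**
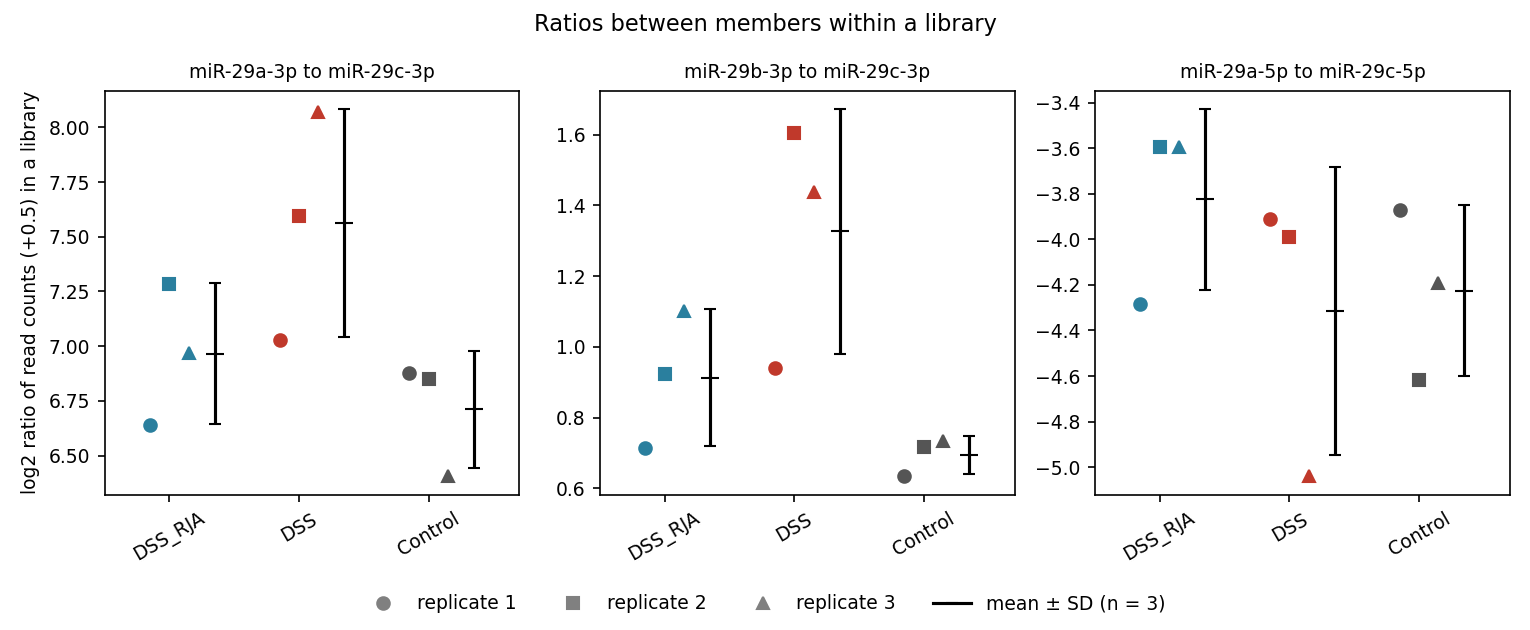
Log2 ratio of read counts (0.5 added to each) between miR-29 members, 1 point per library, with the mean ± SD (n = 3) of DSS_RJA, DSS and Control beside the points and axes that do not start at 0. miR-29b-3p comes from both loci, so its ratio does not set the 2 loci apart. Both ratios over miR-29c-3p are higher in all 3 DSS libraries than in all 3 Control libraries (log2 differences of 0.85 and 0.63), and the ratio of the 5p arms overlaps between them.

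Other rows of the table come from the same hairpins without being among the 5 members. miR-29b-1-5p, from chromosome 6, had 0 to 12 reads in a library and did not pass the filter. miR-29b-2-5p, from chromosome 1, had 7 to 20 reads and passed, at 1.86 ± 1.02 CPM in DSS_RJA, 1.77 ± 0.573 CPM in DSS libraries and 2.09 ± 0.899 CPM in Control libraries (SD, n = 3). Its groups overlapped in each comparison. These strands differ between the miR-29b hairpins, but at these counts they cannot show which locus miR-29b-3p came from.

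Among the 240 other tested miRNAs with a mean of at least 10 CPM, those most like each 3p member were found by Pearson correlation of log2 CPM over the 9 libraries. The points share the libraries and their scaling, and include all 3 groups. miR-29c-3p was closest to miR-101b-3p (0.98), miR-340-5p (0.94) and miR-15a-5p (0.93). miR-29b-3p was closest to miR-21a-5p (0.89), which is abundant in inflamed tissue, followed by miR-195a-5p (0.82) and miR-101a-3p (0.82). Here miR-21a-5p had a log2 fold change of 0.11 ± 0.28 in DSS against Control and did not pass (edgeR adjusted p = 0.827). For miR-29a-3p the closest were miR-500-3p (0.83), the lymphocyte miRNA miR-150-5p (0.81) and miR-129-2-3p (0.77). No miRNA was on more than 1 of these lists. The lists of miR-29b-3p and miR-29c-3p did hold related miRNAs. These were miR-101a-3p beside miR-101b-3p, and miR-195a-5p beside miR-15a-5p, which share a seed.

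Of 12 other miRNAs linked to fibrosis, all were tested and none passed in any of the 3 comparisons. Among all 433 tested, 3.93% passed for DSS and 0% for DSS_RJA when set beside Control, and 0.231% for DSS_RJA beside DSS. In DSS against Control 6 of the list had positive and 6 negative log2 fold changes, with a median of 0.04. All tested miRNAs had 221 positive and 212 negative there, with a median of 0.01. With DSS_RJA the list had 5 positive and 7 negative over DSS (median -0.02), and 3 positive and 9 negative over Control (median -0.30). All tested miRNAs had 224 positive and 209 negative over DSS (median 0.02), and 226 positive and 207 negative over Control (median 0.03). miR-214-3p, a mesenchymal miRNA, averaged 102.4 ± 8.38 CPM over the DSS libraries and 65.3 ± 8.61 CPM over the Control libraries, with a log2 fold change of 0.65 ± 0.20 (edgeR adjusted p = 0.0749). miR-192-5p and miR-200b-3p, which are also epithelial markers, had the most negative values of this list in that comparison, -2.67 ± 0.80 and -2.39 ± 0.75. miR-30c-5p, which lowers connective tissue growth factor, was at 477 ± 100.9 CPM in DSS_RJA and 793 ± 22.9 CPM in Control, with a log2 fold change of -0.73 ± 0.19 (edgeR adjusted p = 0.256). miR-26a-5p, at -0.03 ± 0.18 in DSS against Control, and miR-133a-3p, at -0.13 ± 0.23, had values near 0.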

How the data were processed

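Small RNA libraries of colon were made with an NEBNext kit, which ligates adaptors to the RNA, and read singly over 50 bases from inserts of 18 to 40 bp, per the labels' protocols. Bowtie and DESeq are named in the submitters' processing notes, with neither version nor role. Per the file headers, the authors' table gives each sample a column of raw counts for every mature miRNA. The deposited TPM values equal the count over the library total, with no length term. Mismatch and multi-match settings are not stated there.

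Counts were tested with edgeR 4.0.16 in R 4.3.3. filterByExpr (minimum count 10) kept 433 entries. TMM scaling and the quasi-likelihood test used all 9 libraries with 1 mean per group, and p-values were adjusted by Benjamini-Hochberg over the 433, at a threshold of 0.05. Standard errors of edgeR values, given after ±, are the log2 fold change over the square root of F. Intervals use 6 degrees of freedom, so both are approximate. For log2 differences of ratios between groups, the value after ± is the standard error from the variances of the groups compared. Ratios within a library, with 0.5 added to each count, were compared by exact two-sided permutation (SciPy 1.17.1). DESeq2 1.42.0 and limma 3.58.1 served as alternatives. The fits were tested on simulated data with changes larger than those of the miR-29 members. That check does not show how well changes of their size are found. The members, the lists and the rule for named miRNAs were chosen with earlier results of these data known. That rule names every member, other arms of the 4 hairpins, the 3 nearest miRNAs of each 3p member, and the fibrosis list. The 9 matrix genes were added later. No 2 libraries of the same group were alike within counting error (chi-square over its degrees of freedom at least 39.5). Libraries of different groups were not compared in this way. Reads carry no molecular identifiers, so low counts are less certain than counting error alone implies.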

Additional observations from a re-analysis of the deposited data

How the results depend on the processing

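No miR-29 row passed in any of 258 fits under other settings, and 224 of these kept the direction. Counted under miR-29a-3p, these include 1 fit per comparison with the 3p members summed into 1 row. In DSS against Control that sum gave a log2 fold change of 0.17 (edgeR adjusted p = 0.496). The lowest adjusted p of miR-29a-3p in DSS against Control was 0.0565, and that of miR-29c-3p was 0.136. The other 34 reversed, all of them of main values between -0.12 and 0.25, and their cause was not tested beyond the shift of the median given for scaling by library total. Without TMM, DSS against Control gave 0.30 for miR-29a-5p, 0.35 for miR-29b-3p and 0.33 for miR-29c-5p (log2). miR-29c-3p there was -0.24, and -0.26 in limma on log2(TPM + 1). Also without TMM, DSS_RJA against Control gave 0.18 for miR-29a-3p, 0.12 for miR-29b-3p and 0.044 for miR-29c-5p. In limma on log2(TPM + 1), DSS against Control gave 0.20 for miR-29a-5p, 0.32 for miR-29b-3p and 0.31 for miR-29c-5p. With that fit DSS_RJA against Control gave 0.16 for miR-29a-3p, 0.12 for miR-29b-3p and 0.025 for miR-29c-5p. miR-29b-3p in DSS against Control was 0.0050 with no filter and 0.00035 with only those groups fitted. With 5p arms in place of 3p arms, the ratio of miR-29a to miR-29c differed by -0.088 in DSS against Control (exact permutation p = 0.8) and by 0.49 in DSS_RJA against DSS (p = 0.3, exact).

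Leaving out each library in turn moved miR-29c-3p in DSS against Control between -0.86 and -0.35, and miR-29a-3p between 0.18 and 0.25. In DSS against Control the range was -0.32 to 0.30 for miR-29a-5p, -0.15 to 0.19 for miR-29b-3p and -0.17 to 0.062 for miR-29c-5p. In DSS_RJA against DSS it was 0.083 to 0.58 for miR-29c-3p, -0.31 to -0.13 for miR-29a-3p, -0.069 to 0.53 for miR-29a-5p, -0.25 to 0.077 for miR-29b-3p and -0.34 to 0.074 for miR-29c-5p. In DSS_RJA against Control it was -0.34 to -0.15 for miR-29c-3p, 0.086 to 0.42 for miR-29a-5p, -0.12 to 0.10 for miR-29a-3p, -0.17 to 0.092 for miR-29b-3p and -0.33 to 0.069 for miR-29c-5p. For log2 ratios in DSS against Control it was 0.60 to 1.12 for miR-29a-3p to miR-29c-3p, -0.10 to 0.60 for miR-29a-3p to miR-29a-5p and -0.29 to 0.28 for miR-29a-5p to miR-29c-5p. With DSS and DSS_RJA together it was 0.39 to 0.68 for miR-29a-3p to miR-29c-3p, -0.20 to 0.21 for miR-29a-3p to miR-29a-5p, -0.24 to 0.045 for miR-29b-3p to miR-29a-3p and -0.038 to 0.35 for miR-29a-5p to miR-29c-5p. The ratio of miR-29b-3p to miR-29a-3p ran from -0.014 to 0.34 in DSS_RJA against DSS and from -0.15 to 0.14 in DSS_RJA against Control, where miR-29c-3p to miR-29c-5p ran from -0.34 to 0.043.

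Same-numbered libraries did not deviate together (9 correlations of -0.46 to 0.18, and 2 libraries closest to their own number). With the replicate number as a block, 0 members passed in each comparison, miR-29c-3p in DSS against Control was -0.63 (edgeR adjusted p = 0.208), and 4 of all miRNAs passed there in place of 17. The share of all miRNAs that passed is itself unstable. In DSS against Control, 65 passed in DESeq2, 38 in limma-voom, 73 without TMM, 73 with no filter, 86 in limma on TPM and 88 with only those groups fitted. Without DSS_RJA 3, 90 passed, and without Control 1 or Control 3, 3 passed. Without DSS 2, DSS_RJA 1, DSS 3, Control 2 or DSS 1, 46, 47, 11, 6 and 5 passed. In DSS_RJA against DSS the 1 call became 0 in limma-voom, with the block, with only those groups fitted and without each library other than DSS_RJA 3. It became 2 with DESeq2 size factors and in limma on TPM, 15 in DESeq2, 40 with no filter and 37 without DSS_RJA 3. In DSS_RJA against Control, where 0 passed, 19 did with no filter, 2 in DESeq2, 2 with only those groups fitted and 1 without DSS 1 or DSS 2. miR-29a-5p and miR-29c-3p had under 100 reads in every library, and counting error was not separated from the spread between libraries.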
